A study of Mus musculus with 2 samples.

Results

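Mir221 and Mir222 are a pair of neighbouring microRNA genes on the mouse X chromosome, and their counts were followed in small RNA libraries of the gastrocnemius, the large calf muscle. The genes were selected by name, 2 of the 2202 microRNA genes in the count tables, with earlier results of these counts known. Their counts, levels and ratios between libraries are therefore given as a description, without a test. The series holds 1 group of 2 libraries, biological replicates 1 and 2. Both came from male adult B6CASTF1/J mice of 18 to 20 months, first-generation offspring of C57BL/6J and CAST/EiJ parents, with no treatment named. MicroRNA-seq of total RNA was done on inserts shorter than 30 nt. The labels give the biosamples separate identifiers and 1 shared donor entry. They do not say whether the samples came from separate animals, so differences between the libraries measure the spread between these samples, which may be technical.

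A microRNA is cut from a hairpin precursor and pairs with messenger RNAs mainly through its seed, the bases near its 5′ end, which lowers the stability and translation of the target. MiR-221 and miR-222 share a seed and are usually transcribed together. They are known from the endothelium and the smooth muscle of vessel walls and from dividing cells, where the cell cycle inhibitors p27 (Cdkn1b) and p57 (Cdkn1c) and the stem cell factor receptor Kit are well known targets. In cultured muscle precursors both microRNAs decline as the cells differentiate into muscle fibres.

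The mature sequences show what the members have in common, and capitals mark the seed, bases 2 to 8 from the 5′ end. The sequences are those of RefSeq on GRCm38.p6, the assembly also called mm10, and all lie on the minus strand.

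mmu-miR-221-3p, chrX:19146307-19146329: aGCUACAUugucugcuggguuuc

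mmu-miR-222-3p, chrX:19146901-19146923: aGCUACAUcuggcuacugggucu

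mmu-miR-221-5p, chrX:19146344-19146369: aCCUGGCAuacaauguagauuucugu

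Both 3p microRNAs are 23 bases long and begin with the same 8 bases. Compared position by position without gaps, 11 of the 23 positions were identical in all. Bases that match only after a shift count as different there, so the likeness beyond the shared start is understated. The seed occurred in 3 of the 1058 genes with a mature entry in the RefSeq table. The third was Mir1928 on chromosome 1, whose gene had 0 counts in both libraries. A count of 0 allowed up to 0.675 CPM in replicate 1 and 1.39 CPM in replicate 2, where CPM is a count scaled to a common total of assigned counts. The miR-221-5p arm carries another seed, found in 1 gene of that table, Mir221 itself.

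The hairpins show where these sequences sit, with the listed mature microRNAs in capitals.

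Mir221 hairpin: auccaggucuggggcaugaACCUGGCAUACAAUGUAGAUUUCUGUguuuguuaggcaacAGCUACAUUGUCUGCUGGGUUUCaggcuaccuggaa

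Mir222 hairpin: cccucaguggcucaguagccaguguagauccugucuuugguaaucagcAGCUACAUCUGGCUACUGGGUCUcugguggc

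The Mir221 hairpin (ENSMUSG00000065422.1) is 95 bases long, at chrX:19146294-19146388. The Mir222 hairpin (ENSMUSG00000065471.1) is 79 bases long, at chrX:19146893-19146971. Read along the minus strand, Mir222 comes first and Mir221 follows after a gap of 504 bases. Aligned end to end the hairpins matched at 62.5% of 96 alignment columns. Their predicted folding energies were close, −42.80 kcal/mol for Mir221 and −40.70 kcal/mol for Mir222.

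No other gene in the GENCODE M21 annotation overlapped either hairpin, so both are intergenic there. The nearest other gene was the noncoding Gm14636, on the same strand and 10009 bases upstream of Mir222. The nearest protein-coding genes lay much further away, Tex13c3 at 332.4 kb upstream and 4930578C19Rik at 684.9 kb downstream. Neither hairpin shared a stretch of 20 bases with any other annotated transcript. By that measure reads of the pair have no second annotated origin, although matches elsewhere in the genome were not searched.

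**Figure D1:**
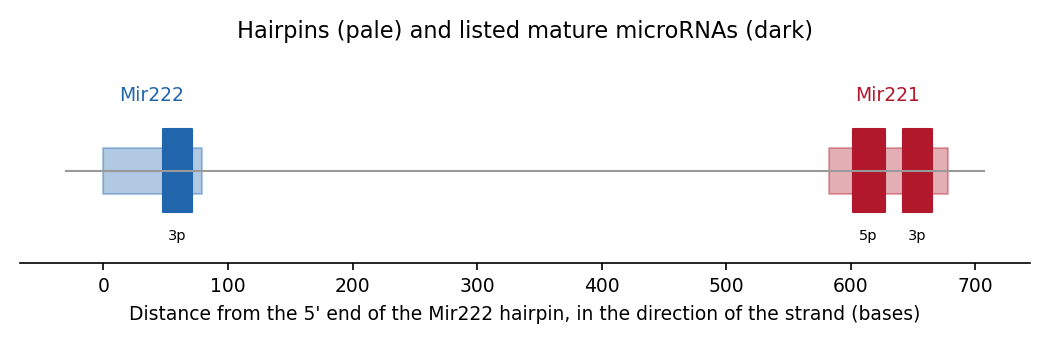
Map of the pair along the minus strand, with distance from the 5′ end of the Mir222 hairpin in bases on the x axis. Pale blocks are the hairpins and dark blocks the mature microRNAs listed by RefSeq, and the gap of 504 bases separates the 2 hairpins.

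The targets named above can be seen at the level of sequence, though messenger RNA was not measured in these samples. The complement of the seed, ATGTAGC, was sought on the transcript strand in the longest annotated 3′ UTR of each gene. It occurred in 9.47% of 21013 genes, among them Cdkn1b, Cdkn1c and Kit. These are chosen examples, so no share of the described targets is given. Such a match is a description of letters, and these genes are partly known as targets because of it. The matches of Cdkn1b and Kit are shown on mm10, plus strand, with the 7 complementary bases in capitals.

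Cdkn1b, chr6:134924417-134924438: tctaaaagcattggATGTAGCa

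Kit, chr5:75654978-75654999: atgatgggagatatATGTAGCa

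Kit, chr5:75656509-75656530: ttgtaaatattgaaATGTAGCa

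Depth sets the precision of the counts. The microRNA genes had 4442692 counts in replicate 1 and 2156222 in replicate 2, or 15.7% and 19.8% of the reads tabulated. Multimapping reads, 73.8% and 70.2%, are not part of the gene counts. All levels, ranks and shares given here therefore hold among assigned reads only. Of the 2202 genes, 1087 share 20 bases with another microRNA locus, so their counts may be too low, whereas Mir221 and Mir222 share none. Intervals given here are 95% intervals that cover counting error only, since the reads were amplified by PCR and carry no molecular identifiers that the tables record.

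Among assigned reads Mir221 was a microRNA of moderate abundance in both libraries. It had 1078 counts in replicate 1, or 243 CPM (exact interval 228 to 258), and 1568 counts in replicate 2, or 727 CPM (692 to 764). Its mean was 485 ± 343 CPM (SD, n = 2). Replicate 2 was thus the high library even though it was the shallower one, and the counting intervals of the libraries did not overlap. By CPM Mir221 ranked 103 of 603 genes with a count in replicate 1 and 58 of 524 in replicate 2. The most abundant gene, Mir378a, lay far above it at 159985 and 185734 CPM. Per base of hairpin the ranks of Mir221 were 106 and 61.

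Mir222 was the weaker member in both libraries. It had 116 counts in replicate 1, or 26.1 CPM (21.6 to 31.3), and 135 counts in replicate 2, or 62.6 CPM (52.5 to 74.1). Its mean was 44.4 ± 25.8 CPM (SD, n = 2). Replicate 2 was again the higher library, again with separate counting intervals, and Mir222 ranked 194 and 148 by CPM (187 and 144 per base). Together the genes took 0.0269% of assigned counts in replicate 1 (Wilson interval 0.0254 to 0.0284) and 0.0790% in replicate 2 (0.0753 to 0.0828). Since Mir1928 had no count, this sum was also the sum for the 3 genes with the seed.

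**Figure D2:**
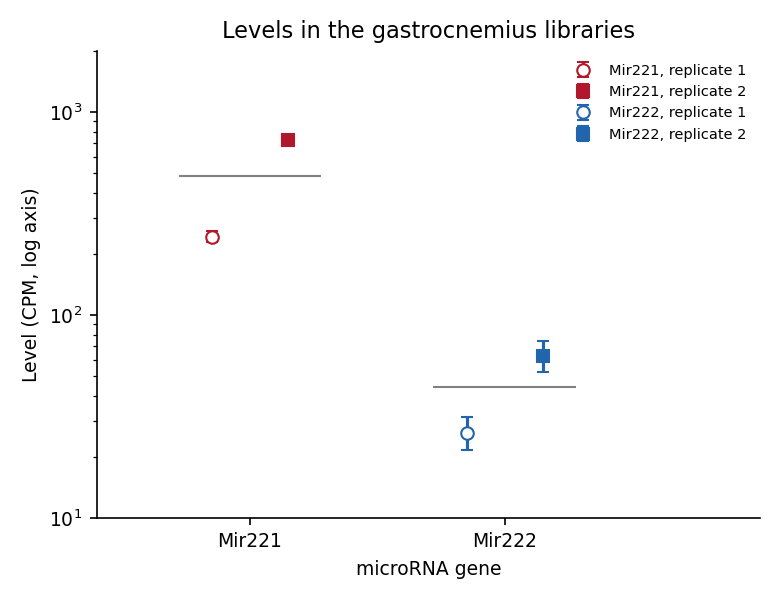
Levels of Mir221 and Mir222 in CPM on a log axis, with open circles for replicate 1, filled squares for replicate 2, bars for the exact 95% counting intervals and grey lines for the mean over 2 libraries. Mir221 sits at 243 and 727 CPM and Mir222 at 26.1 and 62.6 CPM, with replicate 2 higher for both.

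Counts on the gene's strand held all reads of the pair. Mir221 and Mir222 had 0 counts on the opposite strand in both libraries, and their counts without regard to strand equalled those on the strand. The counts are totals per gene, so reads of the 3p and 5p arms could not be told apart for either gene. RefSeq lists no 5p microRNA for Mir222.

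Mir221 exceeded Mir222 several-fold in both libraries. Per base of hairpin, Mir221 was at 2.55 CPM and Mir222 at 0.331 CPM in replicate 1, a ratio of 7.73. In replicate 2 the values were 7.65 and 0.793 CPM per base, a ratio of 9.66. A read here is a whole small RNA whatever the length of its hairpin, so the ratio of plain counts is given too. It was 9.29 in replicate 1 (exact interval 7.67 to 11.4) and 11.6 in replicate 2 (9.74 to 14.0). These intervals overlapped. The Mir222 to Mir221 ratio of replicate 2 over that of replicate 1 was 0.800, with an exact conditional interval of 0.612 to 1.05 that includes 1. A shift in the ratio between the libraries was thus not detectable at this depth, where Mir222, with 116 and 135 counts, limits the precision. As a share, Mir222 made up 9.72% of the pair's counts in replicate 1 (8.09 to 11.5) and 7.93% in replicate 2 (6.69 to 9.31).

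Set against all microRNA genes, both members lay well on the side of replicate 2. Ratios between libraries were computed after TMM scaling, which raises log2 ratios by 0.093 over plain totals, with 1 CPM added to each level. Their counting intervals use the same scaling without the added 1 CPM. The log2 ratio of replicate 2 over replicate 1 was 1.67 for Mir221 (counting interval 1.56 to 1.79), a 3.19-fold higher level. For Mir222 it was 1.32 (0.99 to 1.73), or 2.50-fold. The 380 genes with 10 or more summed counts had a median log2 ratio of 0.020 and quartiles of −0.72 and 0.57. Mir221 had the 22nd highest and Mir222 the 31st highest ratio of the 380, and 49 genes were 2-fold or more higher in replicate 2.

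The 380 genes were each compared by an exact binomial test, two-sided and adjusted by Benjamini-Hochberg, which takes only counting error into account. It called 61.8% of them at an adjusted p of 0.05. Of the 380, 30.3% were called above in replicate 2 and 31.6% above in replicate 1. Both members were among the first, and nothing is read from these calls, since the members were chosen with them known. Of 48 genes with summed counts within a factor of 2 of those of Mir221, 4 were 2-fold or more higher in replicate 2. These were the slow-fibre microRNA gene Mir499 at a log2 ratio of 2.95, Mir221 itself, Mir674 at 1.32 and Mir16-2 at 1.24, named after their values were seen.

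**Figure D3:**
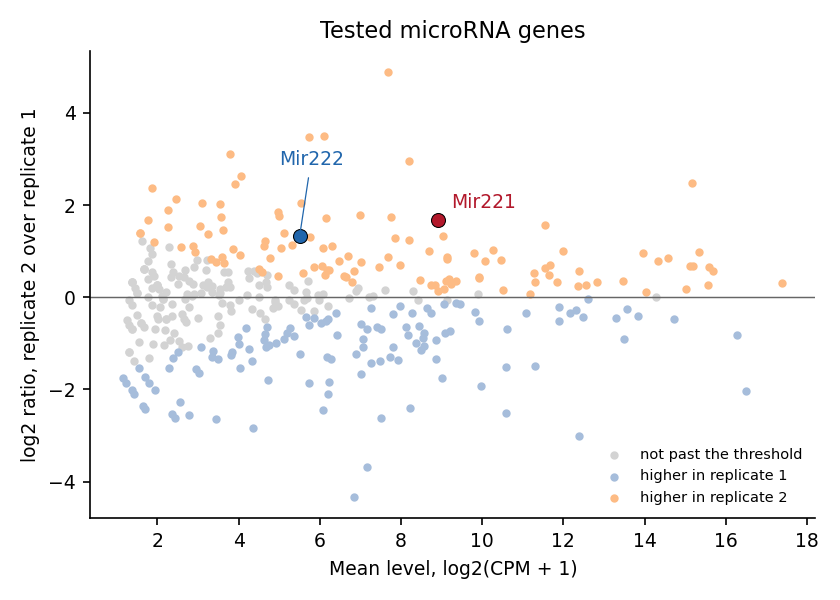
Log2 ratio of replicate 2 over replicate 1 against the mean level in log2(CPM + 1) for the 380 tested microRNA genes, coloured by the call of the exact binomial test. Mir221 at 1.67 and Mir222 at 1.32 lie above the bulk of genes, whose quartiles are −0.72 and 0.57.

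Since Mir221 and Mir222 lie close together, they were set beside other neighbouring microRNA genes. Pairs were microRNA genes next to each other on a strand, at most 10 kb apart, each with 10 or more summed counts. The log2 ratios of Mir221 and Mir222 differed by 0.35. From plain counts, the change of Mir222 relative to Mir221 was −0.32 on the log2 scale (exact interval −0.71 to 0.07). The place of the pair in the order below is imprecise to that extent. Across the 81 other pairs the median difference was 0.78, with quartiles of 0.51 and 1.39, and 12 pairs, 14.8%, were closer than Mir221 and Mir222. Many pairs share a gene with another pair or lie in 1 array, so they are not independent of each other.

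Mir143 with Mir145a and Mir23b with Mir27b, the pairs with the highest summed level, differed more, though other abundant pairs did not. Mir143 and Mir145a, the smooth muscle pair, had log2 ratios of 0.26 and 1.00, a difference of 0.74. Mir23b and Mir27b were at 0.68 and −0.28, a difference of 0.95, and share 20 bases with other loci. Abundant pairs closer than Mir221 and Mir222 included Mir99b with Mirlet7e at 0.14 and Mir30d with Mir30b at 0.20. Both were named after their values were seen. Next to Mir221 and Mir222 in the order were low genes of the imprinted Mirg array, Mir667 with Mir495 at a difference of 0.35 and Mir496a with Mir377 at 0.37. These neighbours in the order had at most 15.2 CPM, so counting error weighs more on them than on Mir221.

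In the gap between the members' levels the pair was ordinary. Their mean levels per base differed by 3.18 on the log2 scale, against a median of 2.83 for the other 81 pairs and quartiles of 1.27 and 4.74. A smaller gap was found in 46 of the 81.

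**Figure D4:**
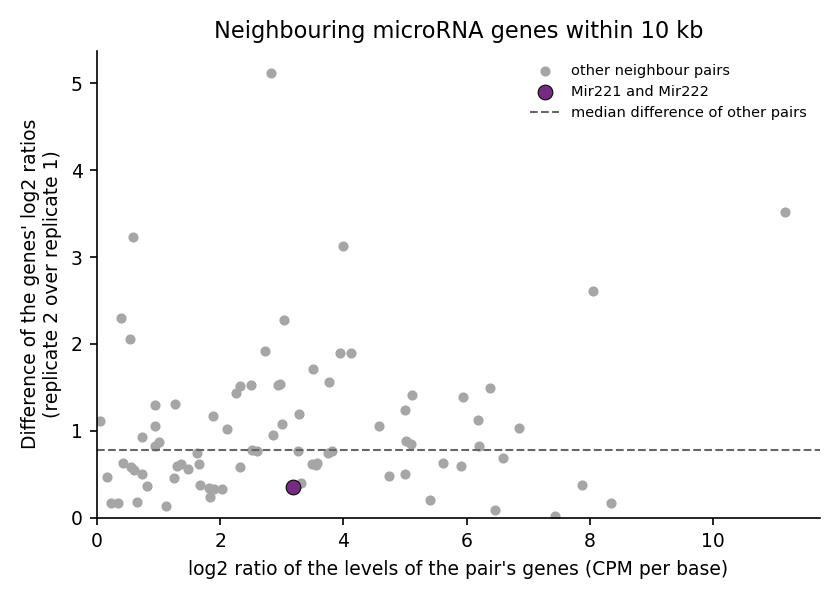
Neighbouring microRNA genes within 10 kb, with the log2 ratio of the 2 genes' levels in CPM per base on the x axis and the difference of their log2 ratios between libraries on the y axis, 1 point per pair. Mir221 and Mir222 lie at 3.18 and 0.35, below the dashed median difference of 0.78 of the other 81 pairs.

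The genes closest to each member in both libraries were found by the distance in log2(CPM + 1), a likeness over 2 libraries only. For Mir221 they were Mir674 at 313 and 733 CPM (distance 0.37), Mir351 at 286 and 536 CPM (0.50), Mir30c-2 at 415 and 711 CPM (0.77), Mir342 at 419 and 700 CPM (0.79) and Mir16-2 at 182 and 405 CPM (0.94). Mir351 was the one of these on chromosome X. For Mir222 they were Mir138-1 at 24.8 and 52.4 CPM (0.26), Mir433 at 31.5 and 74.2 CPM (0.36), Mir128-2 at 18.2 and 73.3 CPM (0.54), Mir92b at 19.1 and 48.7 CPM (0.56) and Mir187 at 21.2 and 42.7 CPM (0.62). All 10 were higher in replicate 2 by the binomial test, and likeness to a member that is higher there selects for that. Mir30c-2, Mir16-2, Mir138-1 and Mir128-2 share 20 bases with other loci.

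Of the 142 microRNA genes on chromosome X, which is single in males, 44 had a count and 36 were tested. In mean CPM Mir221 was number 7 and Mir222 number 17. The other 34 tested genes had a median log2 ratio of 0.28, against 0.020 for all 380. Replicate 2 was higher for 12 of these and replicate 1 for 7, while 15 did not pass. Over all 380, the shares called in those directions were 30.3% and 31.6%. The most abundant were Mirlet7f-2 at a log2 ratio of −0.05, Mir322 at 0.63, Mir98 at 0.33 and Mir361 at 0.52, all below Mir221 and Mir222. Among the 36, the ratios of the pair were number 3 and number 5 from the top.

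Lists of microRNA genes linked to the settings in which the pair is known were divided between the libraries. Among 19 vascular wall linked genes, replicate 2 was higher for 7 and replicate 1 for 9, and 3 did not pass. The median log2 ratio was −0.13, and 12 of the 19 share 20 bases with another locus. The most abundant members were Mir23a at 0.99, Mir23b at 0.68, Mir100 at 0.12 and Mir10b at 0.01, the last of which did not pass. Of these, Mir23a and Mir23b share such bases. Among 18 tested genes linked to myogenic differentiation, 5 passed in the direction of Mir221 and Mir222, 8 passed in the other and 5 did not. Their median was −0.11. Mir322, Mir155, Mir27b and Mir29c led this list, at 0.63, 1.02, −0.28 and −1.48. Mir27b and Mir29c are among 11 of the 18 that share 20 bases with another locus.

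The cell cycle linked list summed to 17828 CPM in replicate 1 and 6119 CPM in replicate 2, with 22 of its 24 names matched to a counted gene. Replicate 1 was the higher library for 9 of its 16 tested genes, replicate 2 for 4, and 3 did not pass. Their median was −0.22. Mir195a held 9660 and 1130 CPM and Mir15a held 2650 and 437 CPM, the reverse of Mir221 and Mir222. Mir93 and Mir17 were at log2 ratios of 0.16 and −0.14. The background shares of 30.3% and 31.6% called in each direction apply to all of these counts and to the lists that follow.

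Markers of cell types also differed between the libraries. The muscle-enriched list summed to 16415 CPM in replicate 1 and 65724 CPM in replicate 2, most of it Mir206, at 11810 and 61540 CPM and a log2 ratio of 2.47. The next most abundant members went both ways. Mir486 was at −0.22, Mir499 at 2.95 and Mir1a-2, which shares 20 bases with another locus, at −1.07. Of its 10 tested genes 4 were higher in each library, 2 did not pass, and 5 share 20 bases with another locus. Mir133c of the 12 had no count. The endothelial list rested on Mir126a, at 104418 and 55386 CPM, a log2 ratio of −0.82, or −1.39 with counts without strand, and Mir126b had no count. Mir221 and Mir222 thus went the other way from the main endothelial microRNA. The smooth muscle and mural list summed to 48845 and 56840 CPM, and both tested genes, Mir143 at 0.26 and Mir145a at 1.00, were higher in replicate 2, with no count for Mir145b.

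The blood-linked lists were divided. The erythroid list summed to 777 CPM in replicate 1 and 109 CPM in replicate 2, with Mir451a at −2.39, Mir144 at −3.69 and no count for Mir451b. Of the 8 names on the leukocyte list, 6 matched a counted gene, and these summed to 2287 and 3634 CPM. Mir146a matched none. A gene counted as Mir146, at a log2 ratio of 0.14 and higher in replicate 2, is not in these figures. Mir155 at 1.02 and Mir150 at 0.80 were higher in replicate 2, Mir142 at −0.69 and Mir223 at −0.23 in replicate 1, 1 gene did not pass and Mir142b had no count. The fibroblast and stroma list summed to 3256 and 4837 CPM, with Mir140 at 1.56 close to the ratios of Mir221 and Mir222, Mir214 at −1.93, Mir199b at −0.67, Mir199a-2 at −0.90 without passing and no count for Mir199a-1. In whole tissue, more cells of a type and more RNA per cell cannot be told apart. The part of these differences in the ratios of Mir221 and Mir222 was not tested.

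**Figure D5:**
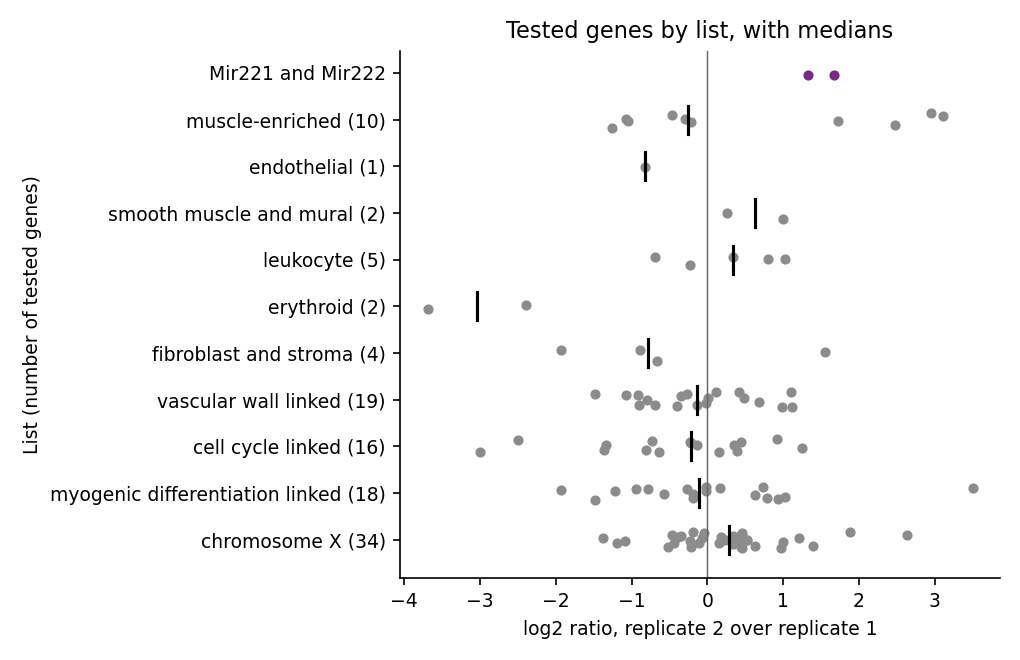
Log2 ratios of replicate 2 over replicate 1 for the tested genes of each list, with black bars for list medians, the number of tested genes in brackets, and vertical scatter within a row for display only. Mir221 at 1.67 and Mir222 at 1.32 lie to the right of every list median drawn, the highest of which is 0.63 for smooth muscle and mural.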

How the data were processed

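For each library the authors deposited a table of raw read counts for microRNA genes, made on mm10 and GENCODE M21 as its readme states. How reads were trimmed, aligned and counted is not given in the sources used here. Of the 3 count columns, the values show 1 without strand, 1 for the gene's own strand and 1 for the other strand, and the own-strand counts were used. Reads assigned to no gene stayed out of totals. All 2202 identifiers matched M21. The members, lists, named genes and other settings were chosen with earlier results of these data known. The named genes were the 5 nearest to each member, the seed family, the 4 most abundant of each list and of chromosome X, the most abundant gene, and the neighbour pairs of highest sum or next in order. Genes said to be named after their values were seen, marker genes without a count or under another name and the example targets fall outside this rule. Ratios used edgeR's TMM scaling and a pseudocount of 1 CPM, with an exact binomial test across 380 genes. The test was checked on data simulated with counting error only, which does not cover other variation between libraries. Intervals are exact Clopper-Pearson or Wilson, or exact conditional for the change of the pair's ratio between libraries. All leave the pseudocount out. Tools were R 4.3.3, edgeR 4.0.16, DESeq2 1.42.0, Python 3.11.15, scipy 1.17.1, biopython 1.88 and RNAfold 2.7.2. Sequences are from RefSeq (GRCm38.p6) and GENCODE M21. Other described targets are not reported here.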

Additional observations from a re-analysis of the deposited data

How the results depend on the processing

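Mir221 and Mir222 stayed higher in replicate 2 under the 8 other settings run: counts without strand, DESeq2 size factors, plain totals, pseudocounts of 0.1 and 5 CPM, no count filter, 100 or more counts, and replicate 1 thinned at random to equal depth. Log2 ratios ranged from 1.53 to 1.77 for Mir221 and from 1.18 to 1.42 for Mir222. Each library alone put Mir221 at 243 to 727 CPM, Mir222 at 26.1 to 62.6 CPM and the log2 ratio of Mir222 over Mir221 at −3.54 to −3.22. Per base of hairpin that ratio was −3.11, against −3.38 from counts. The share of closer neighbour pairs ranged from 14% to 17.6%. The 5 nearest genes of each member were the same with TMM scaling and without strand. Without strand the muscle-enriched median was 0.69 in place of −0.26, with 8 genes tested in place of 10. Mir126a, the endothelial gene tested, moved from −0.82 to −1.39, and the leukocyte median from 0.34 to 0.57, with 4 genes tested in place of 5. The leukocyte median was 0.13 with a pseudocount of 5 CPM, and the vascular wall linked median was −0.23 with plain totals in place of −0.13. The erythroid median moved from −3.04 to −3.73 without strand, with 1 gene tested in place of 2. The smooth muscle and mural median, 0.63 in the main setting, was 0.53 with plain totals and 0.59 with DESeq2 size factors. Mir126a was at −0.91 and −0.86 under these settings. The cause was not tested. With 2 libraries, no level or ratio has a replicate check beyond the other library, and low counts limit Mir222.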

Other observations

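Among the other neighbour pairs, 1 had both genes 2-fold or more higher in replicate 2, as Mir221 and Mir222 did. This was Mir547 and Mir201, also on chromosome X, singled out after its values were seen. Mir547 had 17 and 59 counts, a log2 ratio of 2.64 (counting interval without the pseudocount 2.13 to 3.80), and Mir201 was at 1.20. The other genes on chromosome X with a ratio above that of Mir222 were Mir384, with 5 and 14 counts, and Mir3475, with 3 and 7 counts, both also named after their values were seen. All of these genes lie far below Mir221 in counts.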
